A study of Mus musculus with 4 samples.

Results

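The 10 genes described here belong to the TGF-beta and BMP signaling pathways: the ligand gene Tgfb1, the TGF-beta receptor genes Tgfbr1, Tgfbr2 and Tgfbr3, the co-receptor gene Eng, the BMP receptor genes Bmpr1a and Bmpr2, the signal transducer gene Smad3 and the inhibitory Smad genes Smad6 and Smad7. They were found by matching the mouse Ensembl identifiers in the count tables to these symbols, and all 10 were present among the 42367 genes listed in either pair of libraries. RNA-seq was carried out on hematopoietic stem cells (HSCs) flow-sorted from the tibiae, femora and humeri of C57Bl6 mice, to ask how the loss of Gfi1b, a transcriptional repressor of stem cells, megakaryocytes and erythroid cells, changes expression. One pair of libraries came from HSCs sorted as Lin- cKit+ Sca1+ CD48- CD150+ cells and the other from HSCs that were CD41low and CD9low, a gate meant to leave out megakaryocyte precursors. For the first pair this gate is that of the paper's methods, whereas its results section speaks of CD41+/CD9+ HSCs. Whether the populations overlap is therefore not clear. Each pair held 1 library labelled Gfi1b WT and 1 labelled Gfi1b KO, which makes 4 libraries.

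Per the study's methods, all mice had received tamoxifen and carried Rosa-Cre, a tamoxifen-inducible recombinase that is expressed in nearly all tissues. The KO mice were Gfi1b fl/fl and the WT mice Gfi1b wt/fl, whereas the description deposited with the data speaks of Gfi1b flox/flox mice with or without the Cre. Deletion was therefore not restricted to HSCs, and under the first account the WT cells would have lost 1 Gfi1b allele. Bone marrow of several mice was pooled before sorting, so that the spread between mice is not visible in these data. The sample titles shorten the gene to Gfi1, and the genotype label names Gfi1b.

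TGF-beta ligands are secreted in a latent form and, once released, bind the type II receptor, which recruits and phosphorylates the type I receptor. The activated type I receptor phosphorylates the receptor Smads, Smad2 and Smad3 for TGF-beta or Smad1, Smad5 and Smad9 for BMPs, and these enter the nucleus with Smad4 to regulate target genes. Smad6 and Smad7 are induced by the pathway and act back on the receptors, and in bone marrow TGF-beta is known as a signal that keeps HSCs quiescent.

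The HSC libraries held 50781007 (WT) and 41690708 (KO) counts on genes, and the CD41low/CD9low HSC libraries 12732079 (WT) and 19123185 (KO). Gfi1b itself had 9256 counts in WT and 49910 in KO HSCs, and 611 in WT and 9741 in KO CD41low/CD9low HSCs. A count per gene does not separate the deleted exons from the rest of the transcript, so this count does not check the deletion, and WT and KO are used here as labelled. The paper itself reports that the floxed exons were no longer expressed in HSCs and megakaryocytes after tamoxifen. The HSC genes Kit, Ly6a, Slamf1, Procr, Hlf, Mecom and Mllt3 were each detected in every library, while Cd48 stayed between 1.26 and 7.75 CPM (counts scaled by the library total). The megakaryocyte surface genes Itga2b (CD41) and Cd9 were lower in both CD41low/CD9low libraries than in both HSC libraries. Neutrophil and monocyte genes, the B cell gene Cd79b (17.2 to 30.8 CPM) and the collagen genes Col1a1 and Col1a2 were detected as well. The tables of the HSC pair and of the CD41low/CD9low pair list different sets of genes, with 37140 genes in common, so that they were counted on different annotations.

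All 10 genes were expressed in every library, with Tgfbr3, Eng and Smad3 as the 3 highest and Bmpr1a and Smad6 as the 2 lowest in each. Levels between genes are given in TPM, that is counts per kilobase of exon scaled to the same total over the genes common to both tables. In WT HSCs the highest was Tgfbr3 with 117 TPM, followed by Eng with 100.9, Smad3 with 83.4 and Tgfb1 with 54.3 TPM. Tgfbr1 and Tgfbr2, the 2 receptors that form the signaling complex, stood next to each other with 40.0 and 39.0 TPM, and their 95% counting intervals overlapped. Smad7 had 22.5, Bmpr2 11.8, Smad6 5.50 and Bmpr1a 3.03 TPM. Each TGF-beta receptor gene was thus at several times the level of either BMP receptor gene.

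In WT CD41low/CD9low HSCs the order differed at the top. Eng was the highest with 105 TPM, ahead of Smad3 with 73.3 and Tgfbr3 with 49.3 TPM. Tgfbr2, Tgfbr1, Smad7, Tgfb1 and Bmpr2 followed between 26.9 and 18.4 TPM, each overlapping with its neighbour within the counting intervals. Smad6 had 9.49 TPM, and Bmpr1a was again the lowest with 1.43 TPM. Bulk RNA of a sorted population cannot tell a lower share of expressing cells from less RNA per cell.

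**Figure D1:**
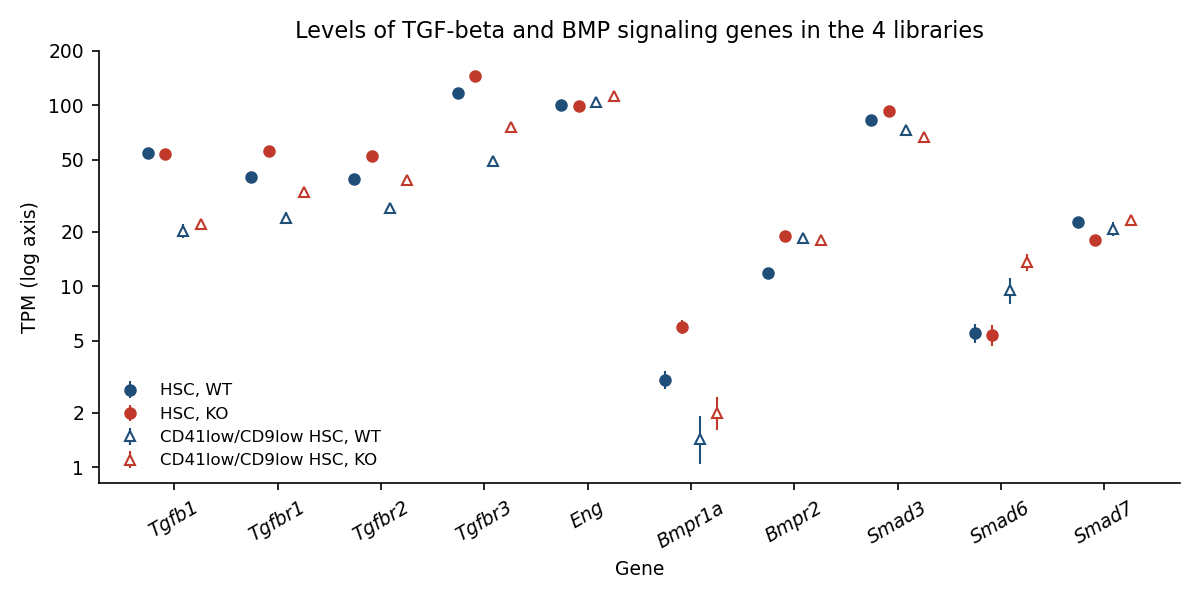
TPM on a log axis of the 10 genes in WT (blue) and KO (red) libraries of HSCs (circles) and CD41low/CD9low HSCs (open triangles), with 95% counting intervals. Eng and Smad3 are near the top in every library and Bmpr1a is the lowest or, in KO HSCs with 5.94 TPM, at the level of Smad6.

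Differences between the populations were tested in a fit over the 4 libraries with population and genotype as terms, where the genotypes serve as replicates of the population and 1 residual degree of freedom remains (edgeR's quasi-likelihood test with Benjamini-Hochberg adjustment over 14745 genes). In all, 5 genes were called at an adjusted p below 0.05, 3 lower and 2 higher in CD41low/CD9low HSCs. Over all genes tested, 11.6% were called lower and 7.41% higher. Tgfb1 was lower by a log2 difference of -1.08 ± 0.16 (SE, adjusted p = 0.00109, edgeR), and its levels did not overlap, with 54.3 and 54.0 TPM in HSCs against 20.2 and 21.97 TPM in CD41low/CD9low HSCs. Tgfbr3, which encodes betaglycan, a co-receptor that presents ligand to the type II receptor, was lower by -0.82 ± 0.15 (SE, adjusted p = 0.00327, edgeR). Tgfbr1 was lower by -0.47 ± 0.15 (SE, adjusted p = 0.0475, edgeR), a call that was lost with DESeq2 (adjusted p = 0.0889). In the other direction, Smad6 was higher by 1.34 ± 0.35 (SE, adjusted p = 0.0215, edgeR) and Bmpr2 by 0.57 ± 0.18 (SE, adjusted p = 0.0471, edgeR). For Bmpr2 the picture depended on the scale. Its TPM went from 11.8 to 18.4 between the WT libraries, but from 18.9 to 18.1 between the KO libraries. Its CPM was higher in CD41low/CD9low HSCs for both genotypes, with 126 against 63.8 in WT and 121 against 99.2 in KO.

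The remaining genes did not pass this test. Eng had a log2 difference of 0.40 ± 0.14 (SE, adjusted p = 0.0708, edgeR), Smad7 of 0.40 ± 0.21 (SE, adjusted p = 0.210, edgeR) and Bmpr1a of -1.05 ± 0.42 (SE, adjusted p = 0.105, edgeR). Tgfbr2 and Smad3 were closest to 0, with -0.21 ± 0.15 and -0.05 ± 0.15 (SE). The populations were also counted on different gene lists and differ in depth, so that a population difference cannot be told apart from one of counting or library batch. Megakaryocyte genes, with a sum of 1680 and 2394 CPM in HSCs against 531 and 635 CPM in CD41low/CD9low HSCs, and immediate-early genes, with 5573 and 1919 CPM against 690 and 641 CPM, were lower in CD41low/CD9low HSCs too, and their part in the differences between populations was not tested.

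Differences between KO and WT within a population rest on 1 library against 1. They are given as the ratio of counts normalised by median-of-ratios size factors, with the exact (Clopper-Pearson) 95% interval, which covers counting error only. Following the study, a ratio above 1.5 or below 0.6 is called higher or lower, provided that 1 or both libraries of a pair reach a minimum of 10 counts, which all 10 genes passed in both pairs. In KO HSCs, 2 of the 10 genes, Bmpr1a and Bmpr2, were above 1.5, where 14.1% of all genes were, and 0 were below 0.6, where 10.3% of all genes were. In KO CD41low/CD9low HSCs, 1 of the 10 genes, Tgfbr3, was above 1.5 against 13.4% of all genes, and 0 were below 0.6 against 12.0%. No member was past the same cutoff in both populations, where 3.32% of all genes were above 1.5 and 2.45% below 0.6. The 10 genes had a median log2 ratio of 0.21 in HSCs and of 0.29 in the CD41low/CD9low pair, and over all genes it was below 0.01 in both.

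**Figure D2:**
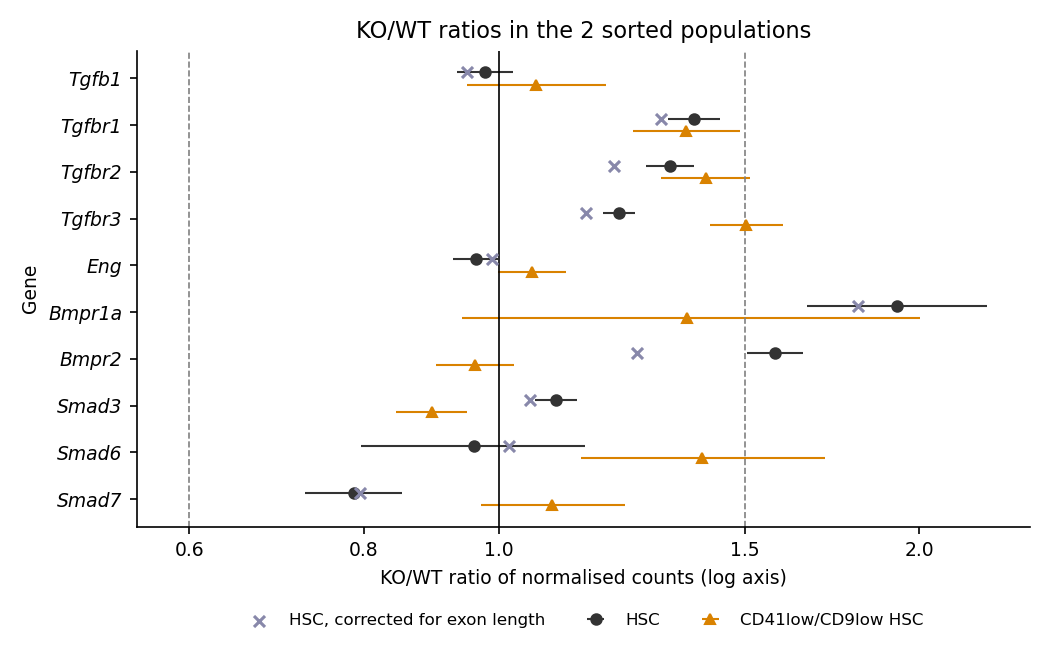
KO/WT ratios of normalised counts on a log axis, for HSCs (black circles) and CD41low/CD9low HSCs (orange triangles), with 95% counting intervals; crosses show the HSC ratio after a correction for exon length, and dashed lines the cutoffs of 0.6 and 1.5. Bmpr1a and Bmpr2 are past 1.5 in HSCs, and Bmpr2 falls to 1.26 after the correction.

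The ligand gene Tgfb1 (ENSMUSG00000002603, GRCm38 chromosome 7, 25687002 to 25705077, forward strand) encodes the TGF-beta ligand most abundant in blood cells. Its raw counts were 4181 in WT and 3311 in KO HSCs, and 493 in WT and 786 in KO CD41low/CD9low HSCs. After normalisation, KO over WT was 0.977 (95% interval 0.934 to 1.02) for HSCs and 1.06 (0.948 to 1.19) for CD41low/CD9low HSCs. Both intervals include 1, so that a difference of Tgfb1 by genotype was not detectable at this depth.

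The type I receptor gene Tgfbr1 (ENSMUSG00000007613, chromosome 4, 47353222 to 47414931, forward strand) had 3984 counts in WT and 4453 in KO HSCs, and 755 and 1542 in CD41low/CD9low HSCs. The KO/WT ratio was 1.38 (1.32 to 1.44) in the former and 1.36 (1.247 to 1.49) in the latter. KO was higher than WT by nearly the same factor in both populations, and both ratios remained under the cutoff.

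The type II receptor gene Tgfbr2 (ENSMUSG00000032440, chromosome 9, 116084293 to 116175360, reverse strand), the receptor that binds TGF-beta first, had 4873 counts in WT and 5235 in KO HSCs, and 1066 and 2248 in CD41low/CD9low HSCs. In HSCs the ratio was 1.33 (1.28 to 1.38), and in CD41low/CD9low HSCs it was 1.41 (1.31 to 1.51). Tgfbr2 thus showed the same picture as its partner Tgfbr1, with KO above WT in both pairs.

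Tgfbr3 (ENSMUSG00000029287, chromosome 5, 107106570 to 107289629, reverse strand) had 11717 counts in WT and 11572 in KO HSCs, and 1559 and 3516 in CD41low/CD9low HSCs. This gives a ratio of 1.22 (1.19 to 1.251) for HSCs and one of 1.504 (1.42 to 1.60) for the CD41low/CD9low pair. The second value lay just inside the cutoff, and its counting interval extends to either side of it. The exons of Tgfbr3 overlap by 297 bases with those of another annotated gene, Gm43422, on the same strand.

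Eng (ENSMUSG00000026814, chromosome 2, 32646595 to 32682669, forward strand) encodes endoglin, a co-receptor of TGF-beta and BMP ligands that is also found on long-term HSCs. It had 6232 counts in WT and 4857 in KO HSCs, and 2047 and 3242 in CD41low/CD9low HSCs. The KO/WT ratio was 0.962 (0.926 to 0.999) for HSCs and 1.06 (0.999 to 1.12) for CD41low/CD9low HSCs. Eng was at 98.6 to 113 TPM in the 4 libraries, in TPM the narrowest range of the 10 genes in fold. The ranking depends on the scale, since in CPM Eng was at 117 to 170 and Smad3 at 138 to 154. Endothelial cells also express endoglin, and of 5 endothelial genes Cdh5, Plvap and Sele had 0 counts in both CD41low/CD9low libraries and at most 5.06 CPM in either HSC library, while Kdr (4.71 to 26.3 CPM) and Emcn (17.8 to 24.4 CPM) were present in all 4. The sum of the list was 38.0 CPM in WT and 56.0 CPM in KO HSCs, and 22.5 CPM in WT and 27.8 CPM in KO CD41low/CD9low HSCs.

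Bmpr1a (ENSMUSG00000021796, chromosome 14, 34410734 to 34503341, reverse strand), a type I receptor of BMPs, was the gene with the highest ratio in HSCs. Its raw counts were 294 in WT and 459 in KO HSCs, and 44 and 90 in CD41low/CD9low HSCs. In HSCs this is a ratio of 1.93 (1.66 to 2.24), above that of 95.2% of all genes that reached 50 counts. In CD41low/CD9low HSCs it was 1.36 (0.941 to 2.003), where the low counts leave an interval that holds both 1 and the HSC value. Exons of Bmpr1a overlap by 290 bases with Gm17110 on the opposite strand. The level of Bmpr1a remained low in KO cells, with 5.94 TPM in HSCs and 1.997 TPM in CD41low/CD9low HSCs.

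Bmpr2 (ENSMUSG00000067336, chromosome 1, 59763400 to 59879014, forward strand) encodes the type II receptor that pairs with Bmpr1a and other type I receptors. It had 3240 counts in WT and 4137 in KO HSCs, and 1603 and 2309 in CD41low/CD9low HSCs. KO was above WT in HSCs, with a ratio of 1.58 (1.505 to 1.65), while in CD41low/CD9low HSCs it was 0.960 (0.901 to 1.02). In level, the WT HSC library stood apart with 11.8 TPM, and the other 3 libraries lay between 18.1 and 18.9 TPM. The summed level of stromal genes, like Bmpr1a and Bmpr2, was higher in KO than in WT HSCs. The sum of 6 stromal genes was 91.6 CPM in WT and 135 CPM in KO HSCs. Col1a1 was at 31.9 and 59.7 CPM, Col1a2 at 46.3 and 62.7 CPM and Cxcl12 at 1.10 and 1.42 CPM. Lepr and Col3a1 were at 0 in WT and 0.240 and 0.216 CPM in KO. Pdgfrb went the other way, with 12.3 CPM in WT and 10.5 CPM in KO HSCs. In CD41low/CD9low HSCs the sum was 35.8 CPM in WT and 29.6 CPM in KO. The part of stromal transcripts in these ratios was not tested.

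Smad3 (ENSMUSG00000032402, chromosome 9, 63646767 to 63757994, reverse strand), the transducer of TGF-beta and activin signals, had 7050 counts in WT and 6273 in KO HSCs, and 1964 and 2636 in CD41low/CD9low HSCs. The KO/WT ratio was 1.10 (1.06 to 1.14) for HSCs and 0.895 (0.844 to 0.949) for CD41low/CD9low HSCs. The directions were opposite, and both intervals excluded 1 while neither ratio came near a cutoff.

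The inhibitory Smad genes differed between the populations in the same sense. Smad6 (ENSMUSG00000036867, chromosome 9, 63953076 to 64022059, reverse strand), which mainly restrains BMP receptors, had 269 counts in WT and 209 in KO HSCs, and 147 and 308 in CD41low/CD9low HSCs. KO over WT was 0.959 (0.797 to 1.15) for HSCs and 1.40 (1.14 to 1.71) for CD41low/CD9low HSCs. Smad7 (ENSMUSG00000025880), which recruits ubiquitin ligases to the TGF-beta receptors, had 1552 counts in WT and 989 in KO HSCs, and 453 and 742 in CD41low/CD9low HSCs. Its ratio was 0.787 (0.725 to 0.852) in HSCs, the lowest of the 10 genes, and 1.09 (0.970 to 1.23) in CD41low/CD9low HSCs. Smad6 and Smad7 were therefore at or below the WT level in KO HSCs and at or above it in KO CD41low/CD9low HSCs.

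The lower Smad7 count in KO HSCs went along with a lower level of immediate-early genes, the genes such as Fos and Egr1 that respond within minutes to stimulation or handling. All 20 of the listed genes were lower in KO than in WT HSCs, 19 of them below 0.6, and their summed level was 5573 CPM in WT and 1919 CPM in KO. In CD41low/CD9low HSCs, 11 of the 16 that passed the minimum count were lower, and the sum was 690 CPM in WT and 641 CPM in KO. Their part in the difference of Smad7 was not tested. In CD41low/CD9low HSCs, the 8 neutrophil and monocyte genes were all lower in KO, with a sum of 1242 CPM in WT and 525 CPM in KO, and the part of such cells in the ratios of this pair was not tested either.

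The ratio of the KO/WT ratios, CD41low/CD9low HSCs over HSCs, was computed for each gene with a conditional exact 95% interval for counting error. It was 0.609 (0.563 to 0.660) for Bmpr2 and 0.815 (0.761 to 0.872) for Smad3, whose ratios were lower in CD41low/CD9low HSCs. For Smad6 it was 1.46 (1.11 to 1.92), for Smad7 1.39 (1.202 to 1.60), for Tgfbr3 1.23 (1.16 to 1.32) and for Eng 1.10 (1.03 to 1.17), whose ratios were higher there. For Tgfbr1 it was 0.987 (0.895 to 1.09), for Tgfbr2 1.06 (0.975 to 1.15), for Tgfb1 1.09 (0.961 to 1.23) and for Bmpr1a 0.708 (0.473 to 1.07), and these intervals include 1. With 1 library per genotype and population, none of these differences has a replicate check.

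A genotype effect shared by both populations was tested in the same fit over 4 libraries, in which the populations serve as replicates of the genotype. The methods describe marrow pooled before lineage depletion and then list the sort of all populations. This reads as a pool shared by the populations of a genotype, and separate pools are not mentioned. With a shared pool, the SEs and p-values of this contrast do not measure the spread between mice. None of the 10 genes was called (edgeR's quasi-likelihood test with Benjamini-Hochberg adjustment, also with DESeq2), and over all genes edgeR called 0.319% higher in KO and 0.115% lower and DESeq2 0.461% higher and 0.197% lower. Without adjustment, 3 of the 10 genes were under 0.05 in either tool, against 9.42% of all genes with edgeR and 6.65% with DESeq2. These were the TGF-beta receptor genes. Tgfbr1 had a shared log2 KO/WT of 0.45 ± 0.15 (SE, adjusted p = 0.333, edgeR), Tgfbr2 of 0.45 ± 0.15 (SE, adjusted p = 0.331, edgeR) and Tgfbr3 of 0.43 ± 0.15 (SE, adjusted p = 0.356, edgeR). Bmpr1a had the largest shared value with 0.71 and also the largest error with 0.42 (SE, adjusted p = 0.670, edgeR), and Bmpr2 had 0.30 ± 0.18 (SE, adjusted p = 0.675, edgeR). Smad6 had 0.21 ± 0.35 and Smad7 -0.12 ± 0.21 (SE), and Tgfb1, Eng and Smad3 lay within 0.03 of 0.

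In HSCs the KO/WT ratio rose with the exon length of a gene, which bears on the receptor genes since they are long. With all genes split by length into 5 equal groups, the median ratio from the shortest to the longest was 0.882, 0.928, 0.980, 1.04 and 1.13 in HSCs, while in CD41low/CD9low HSCs it remained between 0.967 and 1.01. The KO HSC library also held more reads outside annotated features, with 105.3 per 100 counts on genes against 80.0 in WT HSCs. Each HSC ratio was also divided by a running median of the 500 genes closest in length, after which that of Bmpr2, with 17983 bases of exon, was 1.26 and no longer above 1.5. That of Bmpr1a was 1.81 and still above it. The corrected HSC ratios of Tgfbr1, Tgfbr2 and Tgfbr3 were 1.31, 1.21 and 1.15, and that of Smad7 was 0.795. Smad3 moved closer to WT, with a corrected HSC ratio of 1.05 instead of 1.10. The ratio of ratios of Bmpr2 was 0.749 after the correction.

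**Figure D3:**
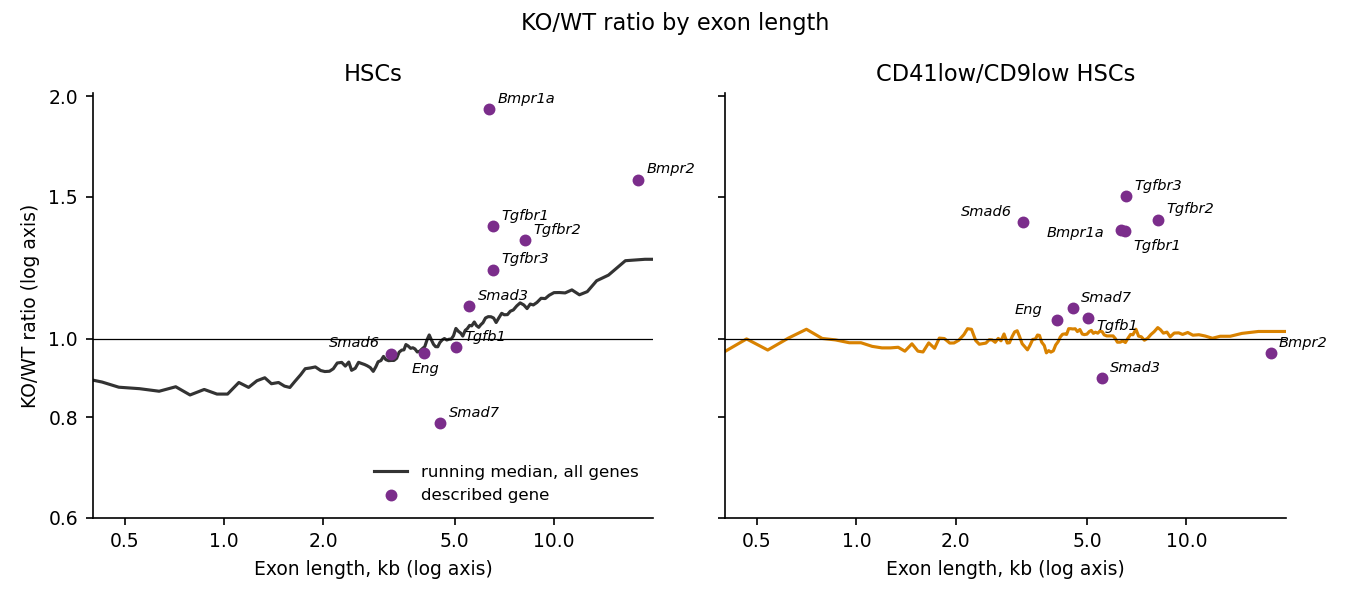
KO/WT ratio against exon length in kilobases, both on log axes, for the 10 genes (points) and for all genes as a running median over 500 genes (line), in HSCs at the left and in CD41low/CD9low HSCs at the right. The median climbs with length in HSCs, where Bmpr2 is the longest of the 10 genes, and stays near 1 in CD41low/CD9low HSCs.

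RefSeq promoters (GRCm38.p6, 300 bases each, placed by the RefSeq start) were given for 8 of the 10 genes, all but Tgfbr3 and Smad7, with 9 promoters in all. Those of Bmpr1a and Bmpr2 lie inside the gene coordinates given above, downstream of the gene start used there. Those of the receptor genes with the highest KO/WT ratios in HSCs are shown, to set their sequences beside those ratios. Gfi1b binds DNA at sites around the core AATC, and the capitals mark each AATC and its reverse complement GATT. Tgfbr1 is read from chr4:47352972-47353271 on the forward strand and Tgfbr2 from chr9:116175314-116175613 on the reverse strand. Bmpr1a is read from chr14:34502497-34502796 on the reverse strand and Bmpr2 from chr1:59764029-59764328 on the forward strand. Each sequence is written 5′ to 3′ along its gene.
Tgfbr1: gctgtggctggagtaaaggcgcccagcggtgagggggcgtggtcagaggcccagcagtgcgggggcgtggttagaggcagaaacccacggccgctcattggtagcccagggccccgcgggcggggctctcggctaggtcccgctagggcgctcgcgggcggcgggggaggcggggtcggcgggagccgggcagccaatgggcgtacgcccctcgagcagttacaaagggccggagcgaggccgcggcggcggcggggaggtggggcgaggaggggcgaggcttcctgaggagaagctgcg
Tgfbr2: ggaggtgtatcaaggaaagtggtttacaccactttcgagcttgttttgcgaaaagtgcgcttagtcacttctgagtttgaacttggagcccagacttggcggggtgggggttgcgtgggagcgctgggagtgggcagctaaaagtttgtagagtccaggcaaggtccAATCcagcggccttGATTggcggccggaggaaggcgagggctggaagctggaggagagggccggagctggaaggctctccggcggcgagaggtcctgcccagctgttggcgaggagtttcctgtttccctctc
Bmpr1a: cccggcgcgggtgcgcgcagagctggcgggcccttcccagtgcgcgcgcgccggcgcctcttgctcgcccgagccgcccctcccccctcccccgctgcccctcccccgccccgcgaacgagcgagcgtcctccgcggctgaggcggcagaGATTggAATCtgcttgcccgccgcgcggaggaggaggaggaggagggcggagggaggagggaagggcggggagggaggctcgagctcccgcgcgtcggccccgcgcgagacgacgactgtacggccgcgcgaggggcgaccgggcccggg
Bmpr2: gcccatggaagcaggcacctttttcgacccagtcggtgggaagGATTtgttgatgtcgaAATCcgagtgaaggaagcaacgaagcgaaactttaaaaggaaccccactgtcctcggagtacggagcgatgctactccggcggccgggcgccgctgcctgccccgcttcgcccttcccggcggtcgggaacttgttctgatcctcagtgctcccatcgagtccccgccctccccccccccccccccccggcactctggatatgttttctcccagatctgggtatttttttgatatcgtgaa

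The core occurred 2 times each in the promoters of Tgfbr2, Bmpr1a and Bmpr2, and 0 times in the Tgfbr1 promoter shown. A second RefSeq promoter of Tgfbr1, from chr4:47385966-47386265, held it 5 times. Smad6 had 1 match and Eng, Smad3 and Tgfb1 had 0. In all, 5 of the 8 genes had a match in at least 1 promoter, Tgfbr1 only in its second. Counted per promoter instead of per gene, 73.1% of the 32851 RefSeq promoters of the same length had a match. The promoters of Bmpr1a, with 79.3% G or C, and of Tgfbr1, with 74.7%, were richer in these bases than the median promoter with 52.7%. A match to so short a core is a description of the sequence, and binding was not measured in these cells.

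The other genes of the pathway were described from a list of 105 genes in 9 groups. In HSCs, 84 of them passed the minimum count, and 15 were above 1.5 and 12 below 0.6, where 14.1% and 10.3% of all genes were. In CD41low/CD9low HSCs, 75 passed, and 5 were above 1.5 and 13 below 0.6, against 13.4% and 12.0% of all genes. The same shares over all genes apply to the counts by group given below. Those that passed had a median log2 ratio of 0.17 in HSCs and of 0.08 in the CD41low/CD9low pair. Of the 75 genes that passed in both, 1 was above 1.5 in both populations, Ltbp1, and 4 were below 0.6 in both, Lefty1, Rgmb, Neo1 and Thbs1. Over all genes that passed in both, 3.32% were above 1.5 in both populations and 2.45% below 0.6 in both.

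Among the ligands, 3 of 14 genes were above 1.5 and 2 below 0.6 in HSCs, and 3 of 12 above and 3 below in CD41low/CD9low HSCs. Bmp4 fell in KO HSCs from 74 to 9 counts (ratio 0.150, 0.0661 to 0.301), and had 31 and 40 counts in CD41low/CD9low HSCs. Tgfb3 had 243 and 124 counts in HSCs (ratio 0.630, 0.503 to 0.785) and 13 and 92 in CD41low/CD9low HSCs (4.72, 2.63 to 9.20). Lefty1, an inhibitory ligand of the family that antagonises Nodal, fell from 295 to 107 counts in HSCs and from 46 to 18 in CD41low/CD9low HSCs. It is named after its values were seen, since its second pair is under the 50 counts asked of the other named genes.

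Among the other receptors and co-receptors, 2 of 8 genes were above 1.5 and 2 below 0.6 in HSCs, and 0 of 8 above and 4 below in CD41low/CD9low HSCs. The BMP co-receptor gene Rgmb fell in both, from 199 to 69 counts (ratio 0.428, 0.321 to 0.565) and from 151 to 100 (0.442, 0.339 to 0.572). Its receptor gene Neo1 fell from 928 to 293 counts (0.390, 0.341 to 0.445) and from 325 to 259 (0.531, 0.450 to 0.627). This contrasts with Bmpr1a and Bmpr2, of which neither was below WT beyond its counting interval in any pair. Of 5 further Smad genes, 4 passed in each population and 0 were past a cutoff.

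Of 9 genes for latency and activation that passed, 2 were above 1.5 and 2 below 0.6 in each population. Ltbp1, which anchors latent TGF-beta in the matrix, rose from 554 to 3195 counts in HSCs (ratio 7.12, 6.50 to 7.80), and in CD41low/CD9low HSCs it rose from 28 to 74 (1.76, 1.13 to 2.83). Thbs1, which can release active TGF-beta, fell from 1539 to 613 counts (0.492, 0.447 to 0.540) and from 313 to 157 (0.334, 0.274 to 0.406). Lrrc32, which tethers latent TGF-beta to the cell surface, had 56 and 103 counts in HSCs and 10 and 2 in CD41low/CD9low HSCs. Ltbp1 and Thbs1 are also expressed by megakaryocytes, and the summed level of 9 megakaryocyte genes was 1680 CPM in WT and 2394 CPM in KO HSCs and 531 and 635 CPM in CD41low/CD9low HSCs. By normalised counts, 7 of the 9 were higher in KO HSCs and 2 lower. Itgb3 rose from 202 to 663 CPM and Itga2b from 547 to 691 CPM. The paper describes both genes as raised in HSCs without Gfi1b. Pf4 went from 144 to 126 CPM, and Cd9 stayed at 185 CPM. Of 8 that passed in CD41low/CD9low HSCs, 5 were higher in KO and 3 lower, among them Vwf with 206 and 126 CPM. The part of megakaryocyte transcripts in the ratios of Ltbp1 and Thbs1 was not tested.

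**Figure D4:**
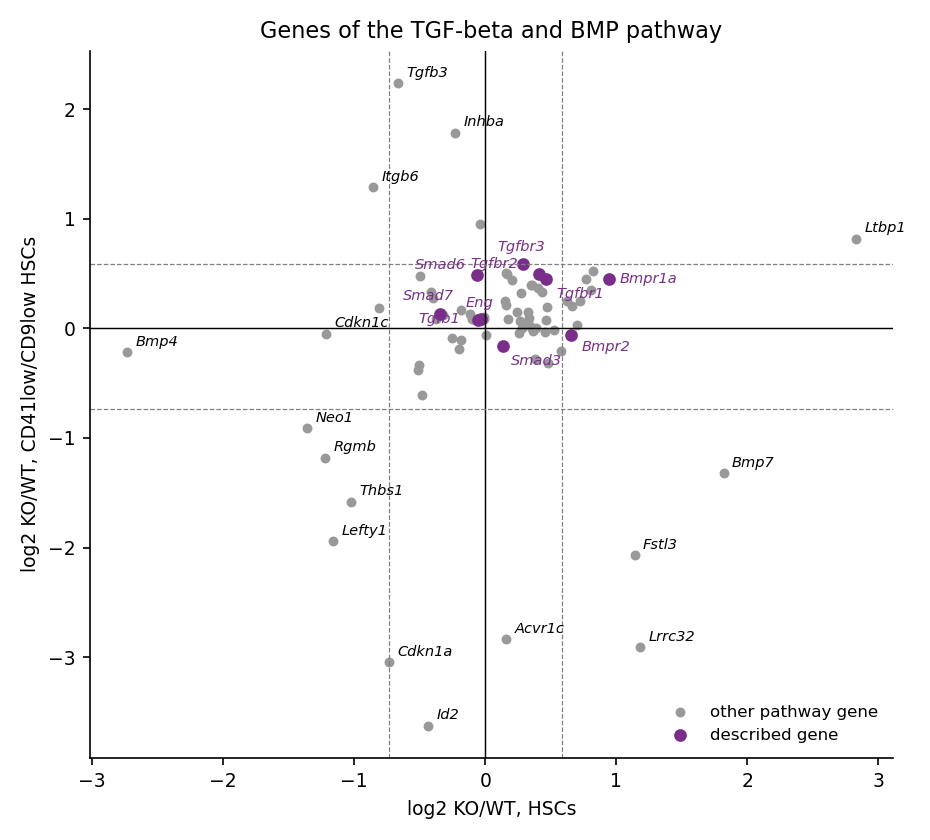
log2 KO/WT ratio in HSCs (x axis) and in CD41low/CD9low HSCs (y axis) of the 10 genes (purple) and of the other pathway genes that passed in both populations with a count in each library (grey); dashed lines mark ratios of 0.6 and 1.5. The 10 genes lie close to the origin compared with Ltbp1, Bmp4, Thbs1 and Id2.

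Of 10 nuclear partners and corepressors, 4 were above 1.5 and 0 below 0.6 in HSCs, where 14.1% and 10.3% of all genes were. In CD41low/CD9low HSCs, 0 were past a cutoff, where 13.4% of all genes were above 1.5 and 12.0% below 0.6. Tgif1, a corepressor of Smads, had ratios of 1.75 (1.64 to 1.86) and 1.28 (1.16 to 1.40), given first for HSCs and then for CD41low/CD9low HSCs. Zeb2, a Smad-binding repressor, had 1.77 (1.74 to 1.81) and 1.44 (1.35 to 1.53), and its HSC value was 1.41 after the exon length correction. Skil, which encodes the Smad repressor SnoN, had 0.706 (0.681 to 0.733) and 1.40 (1.252 to 1.56). Of these 3 genes, Tgif1 and Zeb2 were above WT in both populations and Skil differed in opposite directions.

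Of 14 target genes that passed in HSCs, 1 was above 1.5 and 6 below 0.6, where 10.3% of all genes were, and of 7 in CD41low/CD9low HSCs 0 were above and 2 below. By direction alone, 9 of the 14 were lower in KO HSCs and 5 higher. Of the 7, 3 were lower and 4 higher. Tsc22d1 and Runx3 were above WT in both pairs, at 1.35 and 1.27 for HSCs and 1.26 and 1.31 for CD41low/CD9low HSCs. The 20 immediate-early genes were all lower in the same KO HSC library, and their part in the ratios of the target genes was not tested. Id1, a direct target of BMP signaling that blocks helix-loop-helix factors, fell from 189 to 35 counts in HSCs (ratio 0.229, 0.155 to 0.329) and had 5 and 0 counts in CD41low/CD9low HSCs. Its relative Id2 had 247 and 148 counts in HSCs (0.740, 0.599 to 0.910) and fell from 74 to 9 in CD41low/CD9low HSCs (0.0811, 0.0357 to 0.162). Cdkn1c, a cell cycle inhibitor that marks quiescent HSCs, fell from 813 to 284 counts in HSCs (0.431, 0.375 to 0.494) and had 492 and 714 in CD41low/CD9low HSCs (0.967, 0.861 to 1.09).

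Among the adapters and kinases, 0 of 9 genes were past a cutoff in either population, and Tgfbrap1, a receptor-associated adapter, had ratios of 1.12 (1.047 to 1.19) for HSCs and 1.42 (1.25 to 1.62) for CD41low/CD9low HSCs. Of 5 extracellular inhibitors, 1 was above 1.5 in HSCs and 1 below 0.6 in CD41low/CD9low HSCs. Of 11 ubiquitin ligases, deubiquitinases and phosphatases, 2 were above 1.5 in HSCs and 1 below 0.6 in CD41low/CD9low HSCs.

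In the fit over 4 libraries, 0 of 80 pathway genes were called for genotype (edgeR's quasi-likelihood test), 15 were under 0.05 without adjustment, against 9.42% of all genes, and DESeq2 called 2 higher and 1 lower, against 0.461% and 0.197%. Ltbp1 had a shared log2 KO/WT of 2.08 ± 0.40 (SE, adjusted p = 0.0603, edgeR), Zeb2 of 0.68 ± 0.14 (SE, adjusted p = 0.0889, edgeR) and Thbs1 of -1.29 ± 0.25 (SE, adjusted p = 0.0660, edgeR). Between the populations, 5 of the 80 were called higher and 13 lower in CD41low/CD9low HSCs, against 7.41% and 11.6% of all genes. Those called higher were Bmp1, Inha, Rgmb, Ltbp3 and Cdkn1c. Those called lower were Gdf3, Ltbp1, Zfyve16, Tab2, Strap, Wwp1, Trim33, Usp9x, Usp15, Skil, Zeb2, Tsc22d1 and Runx3, with log2 differences between -3.52 for Ltbp1 and -0.47 for Strap. Skil and Zeb2 were lower there as Tgfb1, Tgfbr1 and Tgfbr3 were.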

How the data were processed

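The authors aligned paired-end reads of stranded mRNA libraries to mm10 (GRCm38) with TopHat2 2.0.10 and deposited raw HTSeq counts per Ensembl gene, without normalisation. For HTSeq, the version, strand setting and gene annotation were not given in the sources used here, so reads of overlapping genes may be divided in a way that cannot be seen. Summary lines, such as reads on no feature, were left out of the gene counts.

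A floor of 3 counts equals 0.0591 (WT) and 0.0720 (KO) CPM for HSCs and 0.236 (WT) and 0.157 (KO) CPM for CD41low/CD9low HSCs. The KO/WT size factors were 0.810 and 1.5 (median of ratios on each pair). Levels in TPM and the correction for length used exon lengths from GENCODE release M21. SEs were derived from the log2 ratio and the F statistic. Software was R 4.3.3, edgeR 4.0.16, DESeq2 1.42.0, Python 3.11.15, numpy 2.4.6, pandas 2.3.3, scipy 1.17.1 and matplotlib 3.10.9. The scripts were tested on simulated data.

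All 10 genes are named. Of the pathway list, the 4 highest and 4 lowest ratios in each population with at least 50 counts, genes past a cutoff in both, and genes called over 4 libraries are named. The genes and lists were chosen with earlier results of these data known. Alternatives were TMM, RLE, total-count and joint scaling, other filters, a pseudocount of 1, a cutoff of 1/1.5, the exon length correction and DESeq2.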

Additional observations from a re-analysis of the deposited data

Results flagged for a closer look

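For 4 of the genes named in the text, Smad3 and 3 other pathway genes, the KO and WT libraries differed in opposite directions in the populations, with each counting interval on its own side of 1. The difference between the populations was not tested in any of them, since each population has 1 library per genotype. The KO/WT ratio in CD41low/CD9low HSCs over that in HSCs was 0.815 for Smad3, 7.49 for Tgfb3, 0.0587 for Lrrc32 and 1.98 for Skil. For Lrrc32 it rests on 10 and 2 counts in the CD41low/CD9low pair, and for Tgfb3 on 13 and 92. The HSC ratio of Smad3 was 1.05 after the exon length correction.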

How the results depend on the processing

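The fit over 4 libraries compares KO with WT within each population. No pairing by replicate number was tried because each group has 1 library and the labels carry no such numbers, and within a population no library could be left out. Corrected for exon length, the number of the 10 genes above 1.5 in HSCs was 1 instead of 2. With the same correction, pathway genes above 1.5 in HSCs numbered 12 instead of 15, and those below 0.6 numbered 10 instead of 12. With at least 50 counts, pathway genes above 1.5 numbered 9 in HSCs and 2 in CD41low/CD9low HSCs, and those below 0.6 in CD41low/CD9low HSCs 4, while without a filter those above 1.5 in CD41low/CD9low HSCs numbered 11. None of the 10 genes crossed a cutoff under TMM, total-count or joint scaling or a pseudocount of 1. Pathway genes above 1.5 in HSCs numbered 14 instead of 15 under these 4, and those below 0.6 numbered 13 instead of 12 under the 3 scalings. In the fit, none of the 10 genes reversed direction under RLE, DESeq2 or no filter, and of the calls of the 10 genes between populations only that of Tgfbr1 was lost, with DESeq2 (adjusted p = 0.0889). For genotype, edgeR called 0 of 80 pathway genes, DESeq2 3 and edgeR without a filter 5 of 96, and between populations edgeR called 5 of the 80 higher and DESeq2 3. Among all genes, 64 were called for genotype by edgeR, 97 by DESeq2 and 420 without a filter. Depth limits Bmpr1a most, with 44 and 90 counts in CD41low/CD9low HSCs.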
